A study of Mus musculus with 24 samples.

Results

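The response of primary astrocytes between 6 h and 24 h after 2 Gy X-rays was examined in 8 of the 24 libraries of the series, 4 harvested at 6 h and 4 at 24 h, chosen by their sample titles and not by any measured value. The cells were wild type C57BL/6J astrocytes cultured from the cortex of late-stage mouse embryos, with the cells of all embryos of a pregnant mouse pooled, and were used at the same early passage in every group. Beside these groups stand 8 libraries of mock-irradiated cells (0 Gy), handled in the same way without X-rays, and 8 libraries of cells exposed to 0.1 Gy, each with 4 harvested at 6 h and 4 at 24 h. Polyadenylated mRNA was sequenced in a single run, and the 4 libraries of a group are biological repeats numbered 1 to 4. The labels do not say whether these came from separate litters, so the p-values measure the spread between these cultures. Within the 8 libraries the effects of X-rays and of time in culture cannot be told apart, and the mock-irradiated libraries are given beside the main results.

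Ionising radiation breaks DNA, and dividing cells answer through the kinases ATM and ATR and the transcription factor p53, which raises the CDK inhibitor p21 and halts the cell cycle. Under p21, the DREAM repressor complex lowers the E2F targets of S phase and the genes of G2 and mitosis, which return when the arrest ends. Astrocytes are the main source of cholesterol in the brain, and they become reactive and secrete cytokines after injury.

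The total count of a library ranged from 17411172 to 38194800 at 6 h and from 14742855 to 25248674 at 24 h after 2 Gy. All 10 astrocyte markers were detected, and their summed level ranged from 2770 to 3230 CPM (counts scaled to a common library size) at 6 h and from 2350 to 3350 CPM at 24 h. Replicate 2 stood apart at both times on the first principal component, which held 44.8% of the variance. Its microglial markers, 14 genes, summed to 420 CPM at 6 h and 379 CPM at 24 h, against 2680 to 2936 and 2394 to 2982 CPM in the other libraries. In bulk RNA, fewer microglia and less RNA per microglial cell cannot be told apart. Summed markers of fibroblasts and vessels ranged from 4890 to 6530 CPM and from 3540 to 6840 CPM, those of neurons from 414 to 632 CPM and from 526 to 675 CPM, and those of the oligodendrocyte lineage from 410 to 750 CPM and from 489 to 897 CPM. The groups overlapped in each of these sums. In replicates 1 to 4 in turn, the neuronal sum was higher at 24 h (478 and 526, 632 and 675, 414 and 543, and 457 and 527 CPM at 6 h and 24 h), as was that of the oligodendrocyte lineage (583 and 693, 750 and 897, 447 and 789, and 410 and 489 CPM). The part of these markers in the results was not tested. Neither the number of detected genes (23670 ± 1140 and 22900 ± 1070, SD, n = 4 each) nor the share of counts in the 100 most counted genes (23.08% ± 2.59 and 22.52% ± 2.41) passed a two-sided exact permutation test between the times (p = 0.314 and p = 0.771, adjusted p = 0.471 and p = 0.771 over 3 values, smallest possible p 0.0286).

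Of 16002 genes tested with edgeR's quasi-likelihood method, 484 rose (3.02%) and 628 fell (3.92%) from 6 h to 24 h after 2 Gy at a Benjamini-Hochberg adjusted p under 0.05 (a gene is said to have risen, fallen or passed on this criterion). At a log2 fold change of at least 1 as well, 249 genes were called higher (1.56%) and 328 lower (2.05%), 577 in all. The lower genes were led by cholesterol synthesis and also held immediate early genes, cytokines and mitotic genes, whereas the higher genes held few members of any list. The median log2 fold change of all genes was -0.00. Libraries of the same replicate number deviated together, and with the number as a block 1412 genes rose (8.82%) and 1660 fell (10.4%), with 511 called higher (3.19%) and 624 called lower (3.9%). Of the 577 called genes, 567 were also called under the block. The groups did not overlap in 1398 genes with all libraries at 24 h above all at 6 h (8.74%) and in 1497 with all below (9.36%). Without replicate 2 of every group, 576 genes rose (3.62%) and 591 fell (3.71%). Some of the genes named here passed with all libraries but not without these (edgeR adjusted p from 0.0504 to 0.136). They were Mvk, Nfkb2, Foxo1, Hey1, Hey2, Nfib, Mki67, Cdk1, Kif15, Neil3, Mcm4 and Slc26a8. The count of called genes depended on single libraries, being 198, 177 and 350 without replicate 1, 3 or 4 at 6 h and 258, 868 and 195 without replicate 1, 2 or 4 at 24 h. Scaled by library size alone, 308 genes were called higher and 261 lower.

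**Figure D1:**
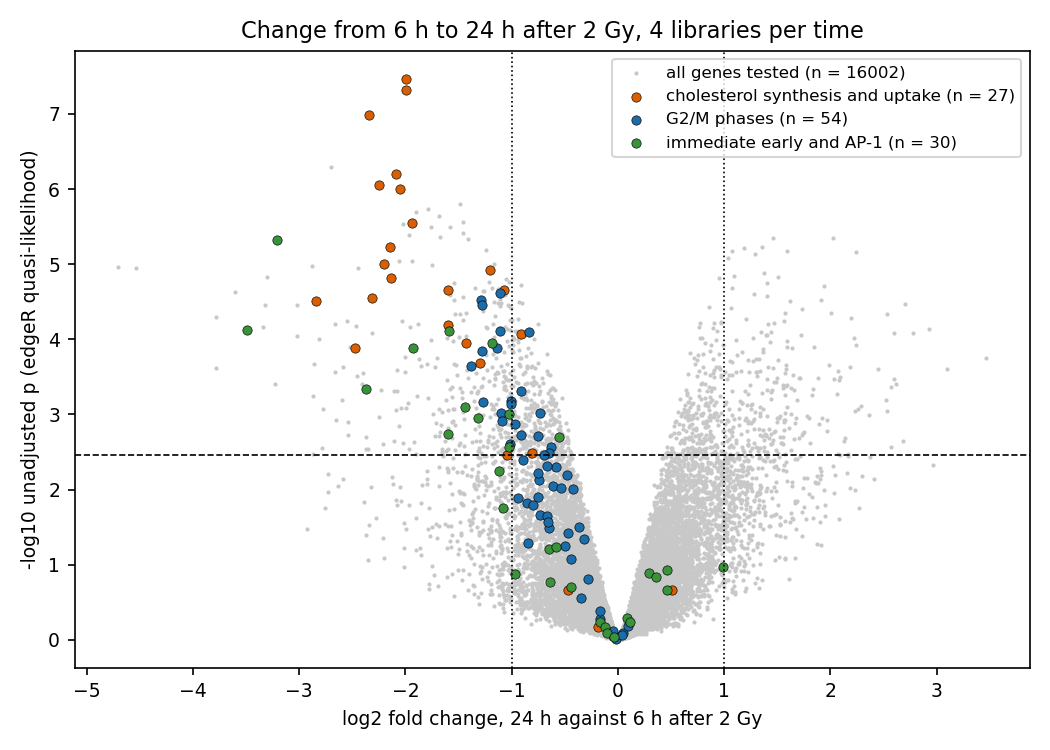
Each point is 1 of 16002 genes, with the log2 fold change from 6 h to 24 h after 2 Gy on the x axis and -log10 of the unadjusted p of edgeR's quasi-likelihood test on the y axis. The cholesterol, G2/M and immediate early lists are coloured, the dashed line marks an adjusted p of 0.05 and the dotted lines a log2 fold change of -1 and 1. The 249 genes called higher lie to the right and the 328 called lower to the left, and the lower genes reach smaller p-values, with Msmo1 at a log2 fold change of -1.99.

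Genes of cholesterol synthesis and uptake fell together. Of the 27 genes of this list, 21 fell, 0 rose and 19 were called lower, with a median log2 fold change of -1.60. Under the block 22 fell, and without replicate 2 of every group 21 fell. Msmo1 (chr8:64718139-64733792, GRCm38), which encodes a C-4 methylsterol oxidase, measured 443, 414, 479 and 507 CPM in the libraries at 6 h and 118, 114, 121 and 113 CPM in those at 24 h. The times lay far apart, and the libraries of each agreed closely. Its log2 fold change was -1.99 ± 0.12 (SE, edgeR adjusted p = 0.000385). Dhcr7 (chr7:143823145-143848410), the reductase of the last step of the pathway, measured 89.3, 79.0, 78.5 and 81.3 CPM at 6 h and 20, 22.1, 21.9 and 19.0 CPM at 24 h, a log2 fold change of -1.99 ± 0.12 (edgeR adjusted p = 0.000385). The lowest library at 6 h was above every library at 24 h in both genes, a separation that the rule for naming genes by rank required.

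Genes of early and late steps of the pathway fell. Hmgcs1, an early enzyme that makes HMG-CoA, measured 1199, 1121, 954 and 1011 CPM at 6 h and 275, 332, 139 and 235 CPM at 24 h, and fell by 2.14 on the log2 scale. The widest change in the list was that of Idi1, the isopentenyl diphosphate isomerase, with 174, 178, 141 and 149 CPM at 6 h and 27.0, 34.8, 8.62 and 19.6 CPM at 24 h and a log2 fold change of -2.84 ± 0.38 (edgeR adjusted p = 0.00629). Among the later enzymes, Cyp51 fell by 2.09, the lanosterol synthase Lss by 2.25 and Hsd17b7 by 2.48 on the log2 scale. Insig1 (chr5:28071363-28078662), a sterol sensor that retains the SREBP factors in the endoplasmic reticulum, fell by 2.05, Stard4, a sterol carrier, by 2.15, and Srebf2, which encodes the factor that drives the pathway, by 0.91. Mvk, the mevalonate kinase, fell by 0.81 on the log2 scale (edgeR adjusted p = 0.0489). Abca1, which exports cholesterol, measured 320 ± 63.6 CPM at 6 h and 457 ± 222 CPM at 24 h and did not pass (edgeR adjusted p = 0.481). In mock-irradiated cells 22 of the 27 genes fell, with a median of -1.67, beside 3.46% of all 15887 genes tested there, and after 0.1 Gy 22 fell, with a median of -1.62, beside 5.33% of 16250 genes. Dhcr7 fell from 86.7 ± 13.7 to 22.3 ± 4.10 CPM in mock-irradiated cells (SD, n = 4, log2 fold change -1.98, edgeR adjusted p = 0.00337).

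**Figure D2:**
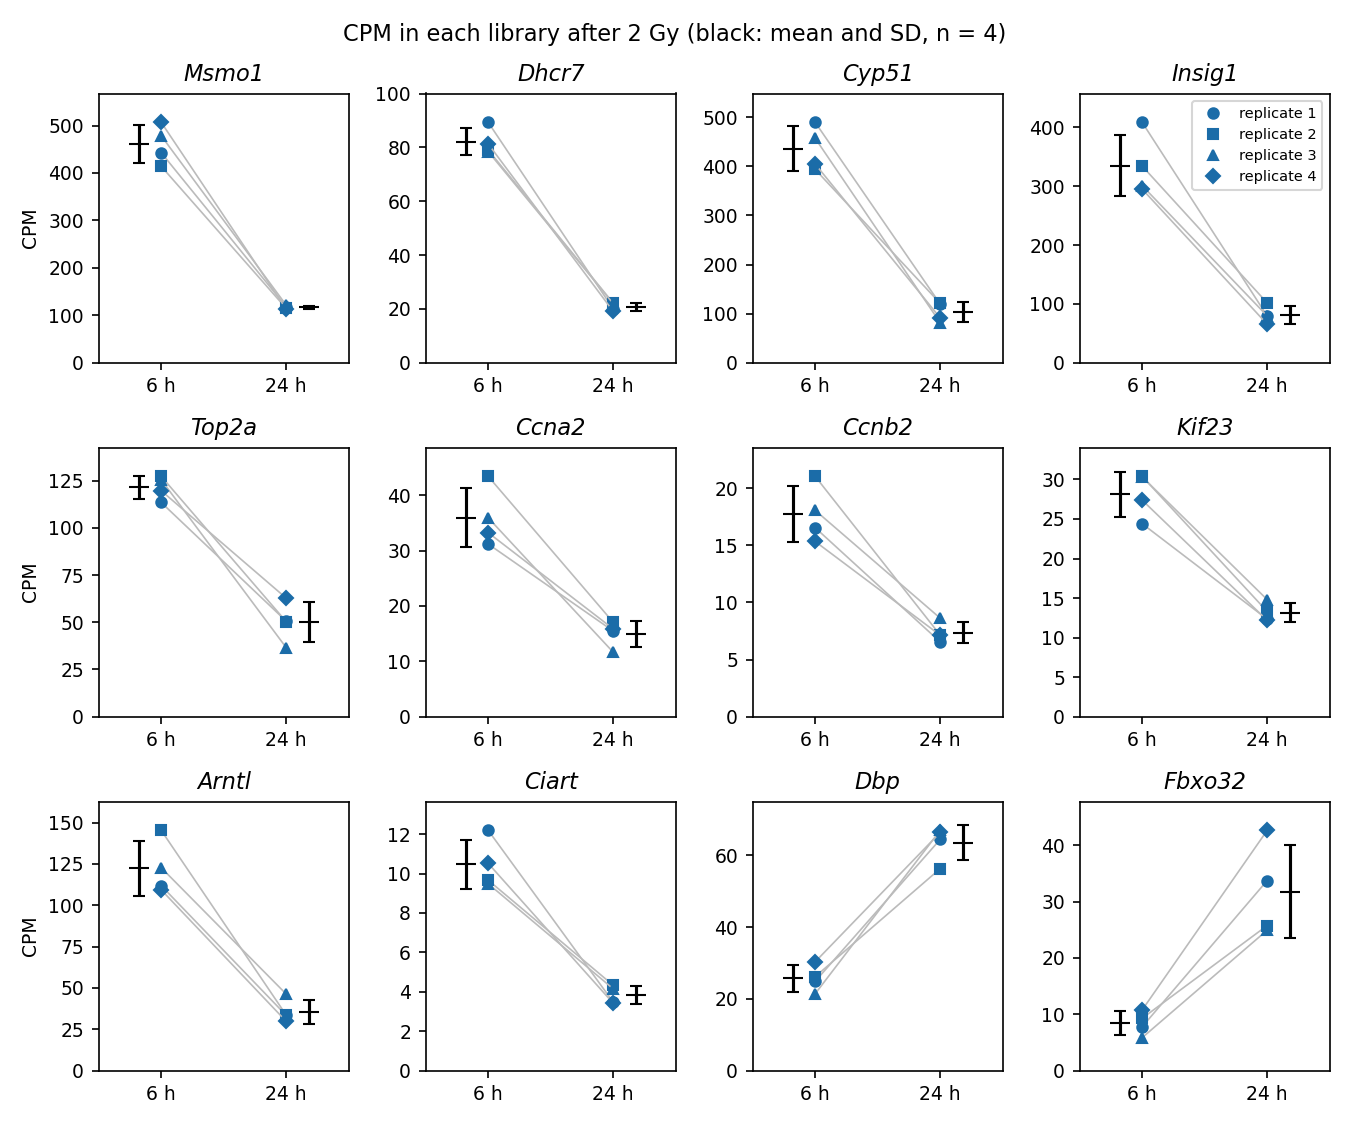
CPM (y axis, from 0) of 12 genes in each of the 4 libraries at 6 h and at 24 h after 2 Gy, with a symbol for each replicate number joined by a line between the times and the mean and SD (n = 4) in black. Msmo1 lies at 414 CPM or more in every library at 6 h and at 121 CPM or less in every library at 24 h.

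Several immediate early genes, which are transcribed within minutes of a stimulus, fell. Of the 31 genes of this list 30 were tested, 12 fell, 0 rose and 11 were called, with a median log2 fold change of -0.65. Under the block 17 fell, and without replicate 2 of every group 10 fell. Nr4a3, an orphan nuclear receptor, measured 65.8, 38.9, 44.4 and 31.1 CPM at 6 h and 7.49, 4.42, 2.92 and 4.94 CPM at 24 h, a log2 fold change of -3.21 ± 0.34 (edgeR adjusted p = 0.00334). Its relative Nr4a1 measured 84.1, 71.2, 38.0 and 19.6 CPM at 6 h and 5.04, 6.78, 5.28 and 2.12 CPM at 24 h. The libraries at 6 h varied widely in Nr4a1, but each exceeded every library at 24 h (log2 fold change -3.49, edgeR adjusted p = 0.00882). The AP-1 subunits Fosl1 and Fosl2 fell by 2.37 and 1.02, and Maff, a small Maf factor, by 1.59 on the log2 scale. Fos and Egr1 themselves did not pass, with 34.1 ± 8.22 and 30.9 ± 11.8 CPM for Fos (edgeR adjusted p = 0.793) and 8.80 ± 4.37 and 17.7 ± 15.0 CPM for Egr1 (adjusted p = 0.334). In mock-irradiated cells 10 of these genes fell and 1 rose, beside 3.24% of all genes that rose there, and after 0.1 Gy 12 fell and 0 rose, beside 4.57%.

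Several cytokines and chemokines, signals to immune cells, fell as well. Of 27 listed genes 23 were tested, 7 fell and 1 rose, with a median log2 fold change of -0.76. Il11, a cytokine of the interleukin-6 family, measured 44.7, 29.7, 84.3 and 23.7 CPM at 6 h and 1.23, 3.17, 1.74 and 0.854 CPM at 24 h, with a log2 fold change of -4.70 ± 0.55 (edgeR adjusted p = 0.00436). Il6 measured 18.2, 5.48, 13.7 and 8.38 CPM at 6 h and 0.341, 0.937, 0.377 and 0.297 CPM at 24 h, where its highest library held 21 counts. Both were lower in every library at 24 h than in any at 6 h, and Il6 fell by 4.54 on the log2 scale (edgeR adjusted p = 0.00436). The monocyte attractants Ccl7 and Ccl2 fell by 3.60 and 2.66, and Cxcl10, a target of interferon, by 1.54. Lif, which drives astrocyte differentiation, fell by 1.68, although its groups overlapped. Tgfb3 was the member that rose, with 50.8, 70.2, 63.8 and 54.5 CPM at 6 h and 109, 106, 168 and 119 CPM at 24 h (log2 fold change 1.06, edgeR adjusted p = 0.0132). Under the block 16 fell and 2 rose. Those that passed only there included Tnf, Ccl3, Ccl5 and Cxcl16, whose level in replicate 2 was the lowest at both times, as was that of the microglial markers. Tnf, for example, measured 12.5, 1.44, 14.1 and 7.95 CPM at 6 h and 6.27, 0.714, 8.06 and 6.50 CPM at 24 h (edgeR adjusted p = 0.603, blocked 0.0268), and the part of microglia in this was not tested. In mock-irradiated cells 7 of these genes fell and 1 rose as well, Il6 by 4.09 and Il11 by 5.44 on the log2 scale.

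Targets and feedback inhibitors of NF-kB, the main factor of inflammatory transcription, held 4 of 18 genes that fell and 0 that rose, with a median of -0.35, and under the block 7 fell and 1 rose. In mock-irradiated cells 4 fell and 0 rose, with a median of -0.73. Ptgs2, which encodes the prostaglandin synthase COX-2, measured 267, 178, 134 and 75.5 CPM at 6 h and 27.5, 25.7, 4.24 and 13 CPM at 24 h. Its groups were apart despite the spread, with a log2 fold change of -3.23 ± 0.60 (edgeR adjusted p = 0.0179). Nfkbiz, Tnfaip3 and Nfkb2, feedback regulators and a subunit of the factor, fell by 1.34, 1.16 and 0.79 on the log2 scale. Of 39 interferon-stimulated genes, 0 passed in either direction with edgeR, with a median of 0.07, and 3 rose and 6 fell under the block, with a median of -0.105. Of 23 targets of TGF-beta and YAP, 2 fell, with a median of -0.29, among them Pmepa1, a feedback inhibitor of TGF-beta signalling, which measured 612, 659, 594 and 488 CPM at 6 h and 298, 429, 296 and 234 CPM at 24 h (log2 fold change -0.91, edgeR adjusted p = 0.0304). Under the block 8 of these fell and 1 rose. In mock-irradiated cells 4 fell and 1 rose, with a median of -0.46. Of 39 tested genes of collagens and matrix 0 passed, with a median of -0.24, and under the block 1 rose and 9 fell. Itga5 (chr15:103344286-103366763), the fibronectin receptor subunit, belonged to the 10 lower genes with the smallest adjusted p and fell by 1.90 on the log2 scale, from 388, 313, 420 and 270 CPM to 85.6, 104, 107 and 78.9 CPM. It fell by 1.95 in mock-irradiated cells.

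Several genes of growth fell. In ribosome biogenesis and growth, 9 of 28 genes fell and 0 rose, with a median log2 fold change of -0.51, and 12 fell under the block. In mock-irradiated cells 11 fell and 0 rose, with a median of -0.48. Gnl3 (chr14:31012434-31019089), a nucleolar GTPase, measured 68.3, 74.5, 73.4 and 69.3 CPM at 6 h and 25.6, 30.6, 23.2 and 23 CPM at 24 h, with a log2 fold change of -1.49 ± 0.14 (edgeR adjusted p = 0.00312), and it fell by 0.98 in mock-irradiated cells. The box C/D proteins Nop56 and Nop58 fell by 1.03 and 0.66, and Myc, a driver of ribosome synthesis, by 0.79 on the log2 scale. Of 38 genes of ribosomal proteins themselves 0 passed, with a median of 0.04, and 0 under the block, with a median of -0.04, and these genes share sequence with many pseudogenes, so that their counts are uncertain. In the unfolded protein and integrated stress response 5 of 30 genes fell and 0 rose, with a median of -0.33, and 9 fell under the block, while in mock-irradiated cells 7 fell and 0 rose, also with a median of -0.33. Mthfd2, a mitochondrial folate enzyme, measured 43.8, 45.8, 49.4 and 34.2 CPM at 6 h and 13.1, 11.7, 16 and 10.7 CPM at 24 h (log2 fold change -1.76, edgeR adjusted p = 0.00317). The factors Xbp1 and Atf4 of the same responses fell by 1.27 and 1.04 on the log2 scale. In glycolysis and the hypoxia response 3 of 33 genes fell, hexokinase Hk2 by 1.05, the glucose transporter Slc2a1 by 1.08 and Vegfa by 1.13, with a median of 0.03. Of 22 Nrf2 targets and antioxidant enzymes 1 fell, the haem oxygenase Hmox1, by 0.81, with a median of -0.04.

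Clock genes moved in opposite directions. Of 21 genes 1 rose and 3 fell, with a median of 0.07, and under the block 4 rose and 5 fell. Arntl (chr7:113207465-113314126), which encodes the activator BMAL1, measured 112, 145, 123 and 109 CPM at 6 h and 33.4, 33.6, 46.3 and 29.8 CPM at 24 h, a log2 fold change of -1.79 ± 0.17 (edgeR adjusted p = 0.00317). Dbp (chr7:45705088-45710203), a target of this activator, measured 24.9, 26.2, 21.4 and 30.3 CPM at 6 h and 64.5, 56.3, 67.0 and 66.4 CPM at 24 h, a log2 fold change of 1.30 ± 0.14 (edgeR adjusted p = 0.00378). Neither gene overlapped between the times, which was a condition for the genes named by rank. Ciart and Bhlhe40, repressors of the clock, fell by 1.45 and 0.99. In mock-irradiated cells, 4 clock genes rose and 4 fell, Arntl by 1.72 on the log2 scale.

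Among the genes that rose, those of the FoxO factors and of limited growth signalling were the most frequent relative to their list. Neural progenitor and Notch genes were almost as frequent, with 5 of 21 tested. In the FoxO list 5 of 20 rose and 2 fell, with a median log2 fold change of 0.53, and under the block 8 rose and 3 fell. Fbxo32, a ubiquitin ligase subunit induced by FoxO, measured 7.77, 9.28, 5.85 and 10.8 CPM at 6 h and 33.7, 25.7, 24.9 and 42.6 CPM at 24 h. All libraries at 24 h were above all at 6 h, with a log2 fold change of 1.91 ± 0.25 (edgeR adjusted p = 0.00629). Pik3ip1, an inhibitor of PI3 kinase, rose by 1.73 and Klf15 by 1.68. Foxo1, a FoxO factor, fell by 0.55, and Foxo4, another, rose by 0.66 on the log2 scale. In mock-irradiated cells 4 of the 20 rose and 2 fell, with a median of 0.53.

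The 10 higher genes with the smallest adjusted p belonged to no common list, apart from Dbp. Atp7b (chr8:21992785-22060305), a copper-transporting ATPase, measured 4.71, 7.20, 4.62 and 5.44 CPM at 6 h and 27.6, 22.8, 18.3 and 21.7 CPM at 24 h, with a log2 fold change of 2.03 ± 0.21 (edgeR adjusted p = 0.00334). Sox12 (chr2:152393611-152398063), a transcription factor of the SoxC group, measured 8.13, 9.73, 7.81 and 9.90 CPM at 6 h and 23.6, 27.8, 33.3 and 23.4 CPM at 24 h, with a log2 fold change of 1.59 ± 0.17 (edgeR adjusted p = 0.00370). Neither overlapped between the times, as the rule for naming these 10 genes required. In mock-irradiated cells Atp7b rose from 5.93 ± 1.95 to 23.7 ± 3.58 CPM (log2 fold change 1.98), whereas Sox12 measured 12.6 ± 2.64 and 22.5 ± 7.72 CPM and did not pass (log2 fold change 0.82, edgeR adjusted p = 0.0912). Skida1 rose by 1.46, Acad12, an acyl-CoA dehydrogenase family member, by 1.38, Tmem8b by 1.35, Slc25a12, the mitochondrial aspartate and glutamate carrier, by 1.19, Zer1, a substrate receptor of a ubiquitin ligase, by 1.09, the phosphatase Ctdsp2 by 1.08 and Rhobtb2 by 1.04 on the log2 scale. Of the 10 lower genes, 6 belonged to the cholesterol list, and Ap1s3 (chr1:79606876-79671972), an adaptor subunit of vesicle coats, fell by 2.70 on the log2 scale, from 18.8, 15.2, 15.1 and 12.6 CPM to 2.79, 2.41, 1.84 and 2.56 CPM. Of the called genes, 204 of the higher and 294 of the lower were protein coding, 17 higher and 5 lower were lincRNAs, and 14 higher and 6 lower were antisense RNAs. The biotypes of all genes tested were not counted, so these numbers have no background to be read against.

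**Figure D3:**
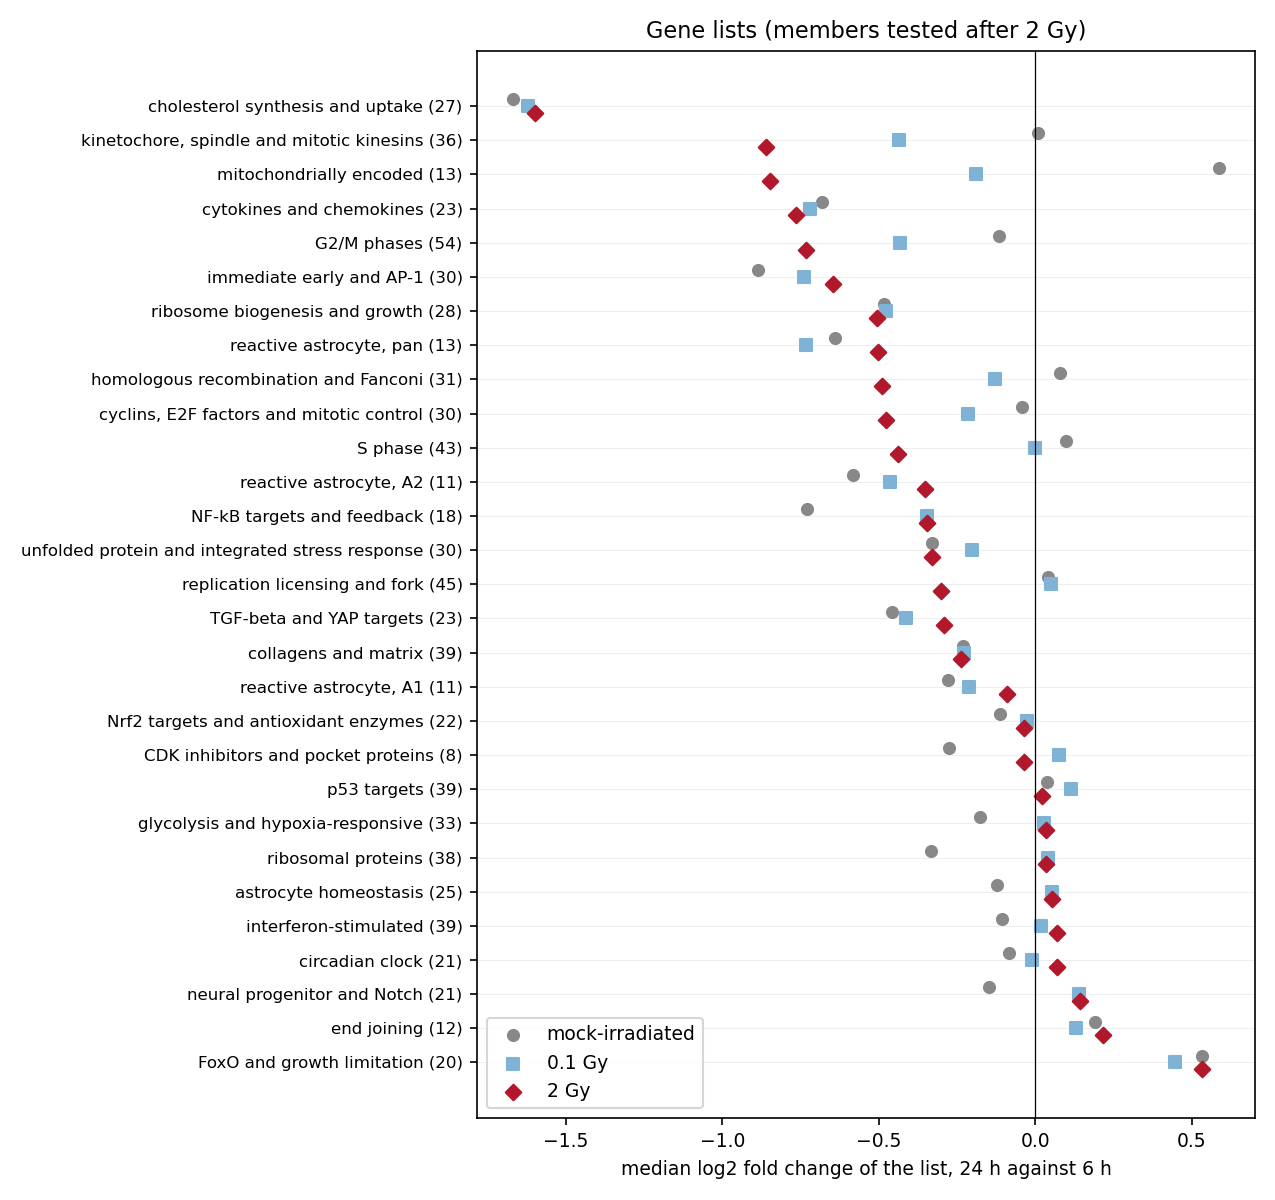
Median log2 fold change from 6 h to 24 h (x axis) of each gene list in mock-irradiated cells and after 0.1 and 2 Gy, with the number of members tested after 2 Gy in brackets. Cholesterol genes lie at -1.60 after 2 Gy and -1.67 in mock-irradiated cells, whereas kinetochore genes lie at -0.86 and 0.01 and mitochondrially encoded genes at -0.85 and 0.59.

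Mitotic genes were the other large group of lower genes. Of 54 genes of the G2/M phases 22 fell, 0 rose and 13 were called, with a median log2 fold change of -0.73, and under the block 41 fell. Without replicate 2 of every group 14 fell. In mock-irradiated cells 3 of these genes fell and 0 rose, with a median of -0.115, and after 0.1 Gy 8 fell and 0 rose, with a median of -0.43. Promoters of mitotic genes often hold the CHR element, with the letters TTTGAA, and CCAAT boxes, which bind the MuvB core of DREAM and the factor NF-Y. The bases upstream of the 3 G2/M genes with the smallest p are shown to place these letters, and come from RefSeq (GRCm38.p6). Each run of 250 bases ends at the base before the start of the gene and is on the minus strand, 5′ to 3′, from chr9:61946800-61947049 for Kif23, chr11:99024190-99024439 for Top2a and chr9:70421555-70421804 for Ccnb2. Capitals mark TTTGAA and CCAAT read on either strand (the other strand reads TTCAAA and ATTGG).
Kif23: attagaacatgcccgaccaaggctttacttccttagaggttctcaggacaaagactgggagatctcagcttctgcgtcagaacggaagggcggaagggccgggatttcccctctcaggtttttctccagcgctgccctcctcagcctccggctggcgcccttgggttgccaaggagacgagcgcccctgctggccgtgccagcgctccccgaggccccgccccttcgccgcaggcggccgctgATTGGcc
Top2a: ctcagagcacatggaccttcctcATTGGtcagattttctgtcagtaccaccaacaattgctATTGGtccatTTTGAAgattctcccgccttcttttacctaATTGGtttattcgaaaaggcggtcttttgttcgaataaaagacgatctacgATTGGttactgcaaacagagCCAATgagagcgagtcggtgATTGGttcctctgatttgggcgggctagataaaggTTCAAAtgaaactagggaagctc
Ccnb2: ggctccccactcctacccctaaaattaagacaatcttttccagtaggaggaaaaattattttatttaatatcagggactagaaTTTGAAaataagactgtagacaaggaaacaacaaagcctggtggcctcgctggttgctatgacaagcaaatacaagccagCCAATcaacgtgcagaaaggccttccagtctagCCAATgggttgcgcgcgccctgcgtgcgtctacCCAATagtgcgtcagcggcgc
Of the 54 genes 47 had a promoter in the RefSeq table. In the window from 250 bases upstream to 50 bases downstream of the start, 33 of these (70.2%) held TTTGAA and 36 (76.6%) held CCAAT, against 20.2% and 41.1% of the 27025 genes with a promoter. Of the 19 G2/M genes with a promoter that fell, 13 held TTTGAA and 14 held CCAAT. Kif23 was among the 13, although its printed bases hold no TTTGAA, because its match reaches into the downstream bases of the window.

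Kif23, a kinesin of the cytokinetic midzone, measured 24.4, 30.4, 30.3 and 27.4 CPM at 6 h and 12.3, 13.3, 14.8 and 12.2 CPM at 24 h, a log2 fold change of -1.11 ± 0.14 (edgeR adjusted p = 0.00587). Top2a (chr11:98992943-99024189), the topoisomerase that untangles chromosomes, measured 113, 127, 125 and 120 CPM at 6 h and 50.6, 50.3, 36.5 and 62.8 CPM at 24 h, a log2 fold change of -1.29 ± 0.17 (edgeR adjusted p = 0.00629). Ccnb2, a mitotic cyclin, measured 16.6, 21, 18.1 and 15.3 CPM at 6 h and 6.54, 7.14, 8.62 and 7.13 CPM at 24 h, a log2 fold change of -1.28 ± 0.17 (edgeR adjusted p = 0.00637). The times did not overlap in any of the 3. The proliferation marker Mki67 measured 67.4, 97.4, 88.5 and 86.0 CPM at 6 h and 31.3, 38.6, 21.2 and 49.7 CPM at 24 h (log2 fold change -1.27, edgeR adjusted p = 0.0234). Cdk1, the mitotic kinase, fell by 0.63 on the log2 scale.

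The machinery that attaches chromosomes to the spindle moved in the same direction. Of 36 kinetochore, spindle and mitotic kinesin genes 16 fell and 0 rose, with a median of -0.86, 29 fell under the block and 8 without replicate 2 of every group. In mock-irradiated cells 0 passed, with a median of 0.01, and after 0.1 Gy 2 fell and 0 rose, with a median of -0.44. Of these 36 genes 21 are also in another list. Ndc80 (chr17:71496100-71526857), which binds microtubules at the kinetochore, measured 8.78, 12.1, 12.1 and 10.8 CPM at 6 h and 5.18, 4.42, 5 and 5.35 CPM at 24 h (log2 fold change -1.14, edgeR adjusted p = 0.0106). Its partner Nuf2 fell by 0.91, the checkpoint kinases Bub1 and Ttk by 1.10 and 1.01, and the centromeric cohesin guard Sgo1 by 1.00. Among 30 cyclins, E2F factors and mitotic regulators, 7 fell and 0 rose, with a median of -0.48, and 15 fell under the block. Mock-irradiated cells gave 1 that fell and 1 that rose, with a median of -0.04. Ccna2 (chr3:36564865-36572150), the cyclin of S and G2 phase, measured 31.2, 43.4, 35.9 and 33.3 CPM at 6 h and 15.5, 17.0, 11.6 and 15.9 CPM at 24 h (log2 fold change -1.27, edgeR adjusted p = 0.00703). Foxm1, the factor that activates mitotic genes, fell by 1.00 on the log2 scale. The cyclin of G1 phase, Ccnd1, measured 1290 ± 321 and 1420 ± 252 CPM (edgeR adjusted p = 0.787).

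Some genes of S phase also fell. Of 43 genes 8 fell and 1 rose, with a median of -0.44, 17 fell and 2 rose under the block, and 4 fell and 0 rose without replicate 2 of every group. Mock-irradiated cells held 0 that fell and 1 that rose, with a median of 0.10. Rrm2, the small subunit of ribonucleotide reductase, measured 85.0, 136, 82.1 and 61.9 CPM at 6 h and 27.9, 51.9, 27.9 and 25.5 CPM at 24 h, a log2 fold change of -1.46 ± 0.30 (edgeR adjusted p = 0.0271). Mcm4, a subunit of the replicative helicase, measured 49.1, 56.7, 52.7 and 52.5 CPM at 6 h and 33.6, 31.9, 35.7 and 35.2 CPM at 24 h, a log2 fold change of -0.64 ± 0.11 (edgeR adjusted p = 0.0155). Both were lower in every library at 24 h. Of 45 genes of replication licensing and the fork 5 fell and 0 rose, with a median of -0.30, and 10 fell under the block. Without X-rays 0 of these passed, with a median of 0.04. Pcna, the sliding clamp, measured 99.9 ± 5.76 and 65.5 ± 17.5 CPM and did not pass (edgeR adjusted p = 0.0804, blocked 0.0190). E2F sites, written TTTGGCGC and TTTCGCGC and read on either strand, were in 5 (16.1%) and 4 (12.9%) of 31 S phase promoters, against 0.585% and 0.374% of all promoters. Of the 5 S phase genes with a promoter that fell, 0 held the first and 1 held the second. The E-box CACGTG of clock promoters was in 5 of 18 (27.8%), against 8.09%, and in 1 of the 2 clock genes with a promoter that fell. In homologous recombination and the Fanconi pathway 31 of 32 genes were tested and 5 fell, with a median of -0.49, and 13 fell and 1 rose under the block. All 32 genes of this pathway list were tested in mock-irradiated cells and 0 passed, with a median of 0.08. Blm, a helicase of this pathway, measured 6.91, 9.24, 7.32 and 8.56 CPM at 6 h and 3.75, 4.55, 1.98 and 3.90 CPM at 24 h (log2 fold change -1.18, edgeR adjusted p = 0.0390). Of 12 genes of end joining, the other route of break repair, 0 passed, with a median of 0.22, and 2 rose and 1 fell under the block. The list of 65 genes was taken from the lower genes that the study tabulated at 24 h after 2 Gy, not all of which were used here. These were chosen on libraries that include the 24 h libraries used here and are not independent evidence of a direction, and 35 of them fell and 0 rose, with a median of -0.98.

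Of 39 p53 targets 1 rose and 2 fell, beside 3.02% and 3.92% of all genes, with a median of 0.02, and under the block 5 rose and 5 fell, while in mock-irradiated cells 0 rose and 2 fell. Cdkn1a, which encodes p21, measured 578 ± 128 CPM at 6 h and 475 ± 86.0 CPM at 24 h (SD, n = 4), against 371 ± 129 and 321 ± 57.1 CPM in mock-irradiated cells. Its change after 2 Gy did not pass (log2 fold change -0.29, edgeR adjusted p = 0.429). Dglucy rose by 0.93, from 39.2, 51.6, 38.1 and 42.1 CPM to 77.7, 89.6, 84.7 and 76.0 CPM. Gdf15, a stress cytokine, and Plk2, a polo-like kinase, fell by 1.66 and 0.99 on the log2 scale. Of 8 CDK inhibitors and pocket proteins 0 passed, with a median of -0.04, and 0 under the block.

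Of 25 tested genes of astrocyte homeostasis 1 rose, Id4, an inhibitor of differentiation, by 0.72 on the log2 scale (edgeR adjusted p = 0.0488), and the median was 0.05. Under the block 2 rose and 1 fell, and in mock-irradiated cells 0 passed. Gfap, the intermediate filament of astrocytes, measured 513 ± 174 and 566 ± 154 CPM (edgeR adjusted p = 0.826) and the water channel Aqp4 550 ± 77.7 and 537 ± 185 CPM (adjusted p = 0.940). In neural progenitor and Notch genes 5 of 21 tested rose and 1 fell, with a median of 0.14, while 8 rose and 4 fell under the block, and 3 rose and 1 fell in mock-irradiated cells. The gliogenic factor Nfia measured 58.5, 77.2, 78.2 and 85.2 CPM at 6 h and 149, 147, 151 and 124 CPM at 24 h (log2 fold change 0.92, edgeR adjusted p = 0.00950). Its relative Nfib rose by 0.73, Pax6 by 0.82, Sox9 by 0.81 and Hey1 by 0.61, and the Notch target Hey2 fell by 1.00. Of the pan-reactive list 2 of 13 genes fell, the hyaluronan receptor Cd44 by 1.49 and Cxcl10, with a median of -0.50, and under the block 1 rose and 6 fell. In mock-irradiated cells 2 of this list fell and 0 rose. In the A1 list of 11 tested genes Ggta1 rose by 0.83 and Fkbp5 fell by 0.86, with a median of -0.09, and 2 rose and 2 fell under the block. In the A2 list of 11 tested genes Ptgs2 and Emp1 fell, the latter by 1.15, with a median of -0.35, and 0 rose and 5 fell under the block. In mock-irradiated cells 1 of the A1 list rose and 1 fell, and 0 and 2 of the A2 list.

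Mitochondrially encoded transcripts took 3.065% ± 1.17 of all counts at 6 h (1.492% to 4.219%) and 1.78% ± 0.566 at 24 h (0.9474% to 2.176%) after 2 Gy (two-sided exact permutation test p = 0.114, adjusted p = 0.342). These transcripts share sequence with nuclear copies, and their counts are uncertain to that extent. Of the 13 genes 0 passed with edgeR, with a median log2 fold change of -0.85, and under the block 0 rose and 9 fell. mt-Co1, a subunit of cytochrome oxidase, measured 6533, 16877, 12072 and 15990 CPM at 6 h and 3446, 9232, 7059 and 8926 CPM at 24 h. The groups overlapped, but the value at 24 h was the lower in each replicate number (edgeR adjusted p = 0.223, blocked 0.00546). In mock-irradiated cells the median was 0.59 and after 0.1 Gy -0.19, and 0 of the 13 genes passed in either.

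The change over the interval was then set beside that in mock-irradiated cells. Of the 577 genes called after 2 Gy, 559 were tested in mock-irradiated cells, 545 had the same sign there and 301 also passed there. Of 15887 genes tested, 564 (3.55%) were called in mock-irradiated cells, and 263 genes were called in both, 45.6% of those after 2 Gy and 46.6% of those in mock-irradiated cells. Across 15681 genes the log2 fold changes correlated with r = 0.707, a description in which genes are no replicates and same-numbered cultures of the doses deviated together. After 0.1 Gy, 624 of 16250 genes (3.84%) were called, of which 379 were shared with 2 Gy (65.7% of the 577 and 60.7% of the 624). The 14 called genes of opposite sign in mock-irradiated cells were Nusap1, Bub1, Ercc6l, Blm, Mki67, Neil3, Ttk, Kif15 and Sgo1, all of them lower after 2 Gy and in the list taken from the study, and Abhd11os, Pgpep1l, Emc9 and 2 predicted genes. None of the 14 passed in mock-irradiated cells, where their difference from 2 Gy is given by the interaction.

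**Figure D4:**
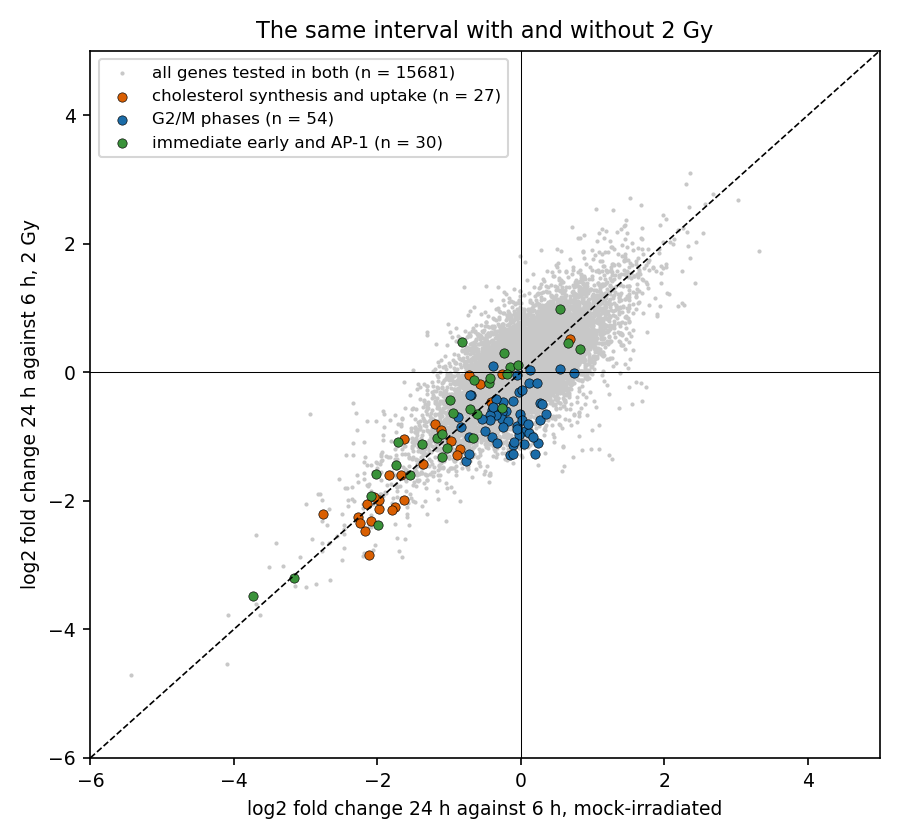
Log2 fold change from 6 h to 24 h in mock-irradiated cells (x axis) and after 2 Gy (y axis) for 15681 genes, with the cholesterol, G2/M and immediate early lists in colour and the line of equal change dashed. Most cholesterol genes lie near the diagonal at the lower left, with Dhcr7 at -1.98 and -1.99. Top2a of the G2/M list lies below it, at -0.15 and -1.29. In the separate unblocked fit of the interaction, 49 of the 54 G2/M genes had a negative value.

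The test of the difference itself is the interaction of 2 Gy and time, over 16 libraries. Of 16866 genes 0 passed (0%) with edgeR, the lowest adjusted p being 0.819, while 827, fewer than 1 in 20, were at an unadjusted p under 0.05, 4 passed at the minimum fold change with DESeq2 and 0 with voom. With a block for each replicate number within a time, in which the doses of a number deviated together, 1143 genes passed (6.78%), and when GC content and transcript length were added to that fit 402 passed (2.39%). In the blocked fit 0 of the 54 G2/M genes were higher and 26 lower, as were 0 and 23 of the 36 kinetochore genes, 0 and 15 of the 43 S phase genes, 0 and 12 of 32 genes of recombination and 0 and 10 of 30 cyclins and E2F factors. With GC content and length in the fit 19, 15, 11, 6 and 11 of these were lower. The median interaction of the G2/M list was -0.52 in the unblocked fit, -0.52 in the blocked fit and -0.37 with GC content and length, on the log2 scale. The cholesterol list held 2 genes that were higher and 1 that was lower in the blocked fit, and 0 and 0 with GC content and length, with an unblocked median of -0.04. The clock list held 0 in either direction.

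Ccna2 had the smallest p of the interaction. In mock-irradiated cells it measured 40.6 ± 7.60 CPM at 6 h and 38.4 ± 4.11 CPM at 24 h, after 0.1 Gy 42.1 ± 12.6 and 27.9 ± 2.14 CPM, and after 2 Gy 36.0 ± 5.35 and 15.0 ± 2.34 CPM (SD, n = 4 each). The means were lower with each higher dose at 24 h. Its interaction was -1.17 ± 0.23 on the log2 scale (unadjusted p = 0.00011 and adjusted p = 0.819 by edgeR, blocked adjusted p = 0.0106). Mki67 measured 93.4 ± 31.3 and 107 ± 33.2 CPM in mock-irradiated cells, 96.9 ± 12.2 and 65.9 ± 18.9 CPM after 0.1 Gy and 84.8 ± 12.6 and 35.2 ± 12 CPM after 2 Gy (blocked interaction -1.51, edgeR adjusted p = 0.0152). Nusap1, Ercc6l, Ndc80 and Nuf2, all of the mitotic spindle or chromosome segregation, followed Ccna2 in order of p. Nusap1, Ercc6l, Ndc80 and Ccna2 were the 4 genes that passed with DESeq2, each at an adjusted p of 0.0437. Nuf2 no longer passed in the blocked fit once GC content and length were corrected for (edgeR adjusted p = 0.0896).

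Among the 5 genes with the smallest p in the other direction, Abhd11os, Nkain4 and Podxl2 passed in the blocked fit (edgeR adjusted p = 0.0335, 0.0335 and 0.0356), and Slc26a8 and Large2 did not (adjusted p = 0.0584 and 0.0577). Podxl2 no longer passed once GC content and length entered that fit (edgeR adjusted p = 0.0849). Abhd11os lies antisense to Abhd11, and their reads cannot be told apart unless the counting used strand, which is not stated. It measured 1.49, 1.26, 0.859 and 0.978 CPM at 6 h and 2.18, 2.77, 3.30 and 3.56 CPM at 24 h after 2 Gy. Nkain4, which interacts with the sodium pump, measured 6.69, 6.57, 4.62 and 3.97 CPM at 6 h and 5.86, 7.59, 11.5 and 11.5 CPM at 24 h, groups that overlapped, and 7.33 ± 1.39 and 5.26 ± 1.09 CPM in mock-irradiated cells. Of the mitochondrially encoded genes 8 of 13 were lower in the blocked interaction and 4 with GC content and length in the fit. Of the p53 targets 2 were higher and 6 lower in the blocked interaction, and 0 and 1 with GC content and length. Mdm2, the ligase that degrades p53, measured 246 ± 43.3 and 207 ± 64.7 CPM after 2 Gy and 158 ± 45.6 and 218 ± 62.5 CPM in mock-irradiated cells (blocked interaction -0.75, edgeR adjusted p = 0.0382). Of the 38 ribosomal protein genes 7 were higher in the blocked interaction, also with GC content and length. Their median log2 fold change from 6 h to 24 h was 0.035 after 2 Gy and -0.33 in mock-irradiated cells, and 0 passed in either.

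**Figure D5:**
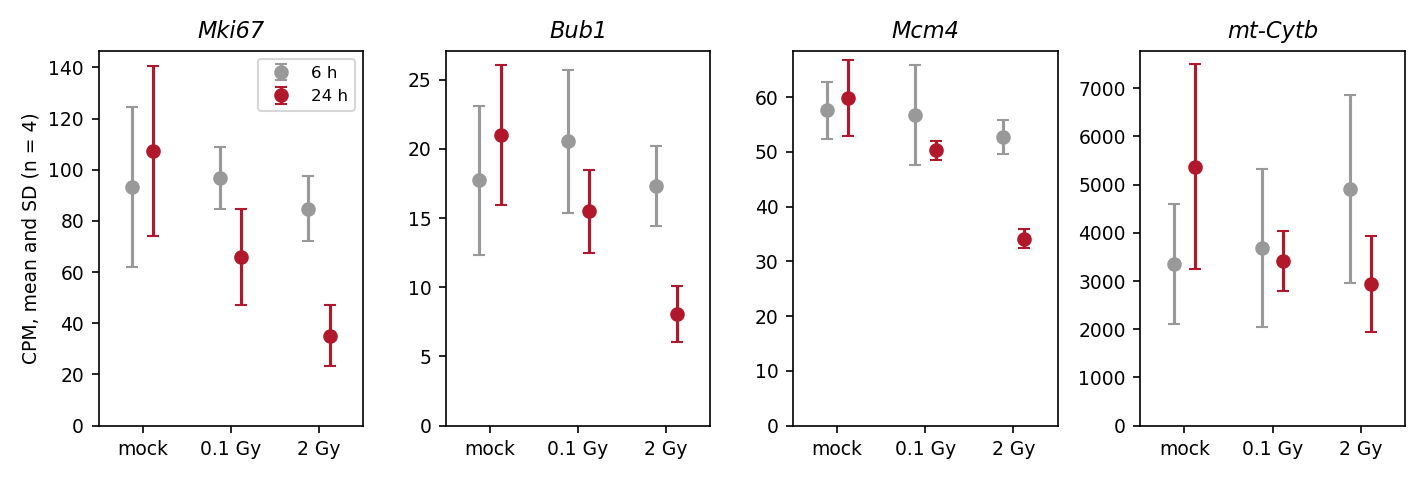
Mean CPM with SD (n = 4, y axis from 0) of Mki67, Bub1, Mcm4 and mt-Cytb at 6 h and 24 h in mock-irradiated cells and after 0.1 and 2 Gy. At 24 h after 2 Gy, Mki67 lies at 35.2 ± 12 CPM, below its 107 ± 33.2 CPM in mock-irradiated cells.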

How the data were processed

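The authors deposited raw counts per gene, whole numbers for 49315 genes in 1 table for each of the 24 libraries, with neither normalization nor pooling. The sequencing company trimmed, mapped and counted the reads. The aligner, counter and use of strand are not given in the sources used here, and the coordinates are those of GRCm38. Counts were fitted in R 4.3.3 with edgeR 4.0.16 (TMM, its filter on low counts, quasi-likelihood test, Benjamini-Hochberg adjustment over all genes tested), on the 8 libraries of each comparison or the 16 of the interaction. A gene passed at an adjusted p under 0.05 and was called where the log2 fold change was also 1 or more in size. CPM were scaled by TMM over all 24 libraries. The total counts of the 8 libraries used limit the precision of genes with few counts, and intervals of the fits cover the spread between libraries. Counts differed by more than sampling noise in each of 36 within-group pairs (lowest chi-square per degree of freedom 25.86).

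Named genes were the 10 in each direction with the smallest adjusted p among called genes whose groups did not overlap, the 5 in each direction with the smallest p in the interaction (predicted genes passed over) and members of the 35 lists. The study's own methods name no model. The members and lists were chosen with earlier results of these data known, and lists were described by counts and medians without a test. Deviations from the group means correlated between same-numbered libraries of the times after 2 Gy (0.261, 0.828, 0.49 and 0.678), and between 2 Gy and mock within a time (0.528 to 0.912), so the numbers in the labels were taken to pair the libraries. Between the times in mock-irradiated cells, replicate 3 gave 0.0688, and replicates 3 and 4 at 6 h matched replicates 4 and 3 at 24 h best, so the blocked counts of that comparison rest on an uncertain pairing. The scripts were tested on data simulated for the comparison of the times after 2 Gy. The interaction and the correction for GC content and length were not simulated. Alternatives were DESeq2 1.42.0, limma 3.58.1 (voom), other scalings and filters, the replicate block, splines of GC content and length (5 degrees of freedom), all 24 libraries, and leaving out libraries. Leaving out replicate 2 of every group and the block in DESeq2 were chosen after the data were seen. Results on a few genes are not reported here.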

Additional observations from a re-analysis of the deposited data

Results flagged for a closer look

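Among 48 groups of 4 libraries examined, 3 held a value whose gap to the nearest other library, as a share of the range of the group, exceeded Dixon's critical value, which chance exceeds in about 1 in 20 groups. Ctdsp2 measured 219 CPM in replicate 1 at 24 h, against 203 to 204 CPM in the others. Zer1 measured 26.3 CPM in replicate 1 at 6 h, against 30.9 to 31.7 CPM. The microglial markers summed to 420 CPM in replicate 2 at 6 h, against 2680 to 2936 CPM. At 24 h their sum in replicate 2, 379 CPM against 2394 to 2982 CPM, was also the lowest, but the gap as a share of the range stayed under the critical value.

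The change from 6 h to 24 h differed between 2 Gy and mock-irradiated cells in the blocked fit of the interaction (edgeR, adjusted p under 0.05) for 6.78% of all genes and, among the genes named by rank, for the 9 that follow, although for none of them in the unblocked fit, where the lowest adjusted p was 0.819. Of the 9, 8 had been chosen for a small p in this same interaction, and Sox12 for its change after 2 Gy, so their number is not a result. On the log2 scale, the blocked interaction was 1.77 for Abhd11os, 1.20 for Nkain4, 1.13 for Podxl2 and 0.80 for Sox12. It was -1.18 for Ccna2, -1.16 for Nusap1, -1.26 for Ercc6l, -1.03 for Ndc80 and -0.96 for Nuf2. A positive value means a higher change over time after 2 Gy than in mock-irradiated cells, not a higher level. From 6 h to 24 h after 2 Gy, Nkain4 and Podxl2 did not pass (edgeR adjusted p = 0.168 and 0.440). Podxl2 measured 7.17 ± 1.81 and 9.34 ± 2.40 CPM there, and 8.86 ± 2.06 and 5.22 ± 1.15 CPM in mock-irradiated cells. Podxl2 (adjusted p = 0.0849), Sox12 (adjusted p = 0.0829) and Nuf2 (adjusted p = 0.0896) no longer passed once GC content and transcript length entered the blocked fit.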

How the results depend on the processing

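The 20 named genes of the comparison of the times kept their direction and their side of the adjusted p of 0.05 in 400 values under the alternatives, but Rhobtb2, at 0.99, was under the minimum log2 fold change without replicate 2 at 24 h. The number of called genes after 2 Gy, 577, was 939 with DESeq2, 1135 with the replicate block, by which the libraries pair, 1152 with the block and a correction for GC content and length, 951 with all 24 libraries in one fit, 1121 with DESeq2 and the block, 1112 without a minimum fold change and 151 at an adjusted p under 0.01. Leaving out each library in turn gave 177 to 868 genes. In mock-irradiated cells, the 564 genes became 1037 with the block, 1011 with the block and the correction, 867 with all libraries, 1042 with DESeq2 and the block, 1064 without a minimum fold change and 144 at an adjusted p under 0.01, and 153 to 1010 without single libraries. The pairing behind its blocked counts is uncertain. After 0.1 Gy, the 624 genes became 1135, 1160, 1049 with DESeq2 and the block, 1094 without replicate 2 of every group, 1609 without a minimum fold change and 204 at an adjusted p under 0.01, and 303 to 888 without single libraries. The interaction, at 0 genes, gave 4 with DESeq2, 203 with the replicate block, 46 with the block and the correction and 179 with DESeq2 and the block, and 0 without any single library. The cause of these differences was not tested.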
